A study of Mus musculus with 9 samples.

Results

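The Rab genes encode small GTPases that direct traffic between the membrane compartments of a cell, and their RNA was followed here in the nucleus accumbens of mice given saline, cocaine, or cocaine followed by withdrawal. Members were the rows of the expression table named Rab, a number and at most 1 further letter, whose level averaged 1 RPKM or more across 9 sequencing lanes. RPKM is the number of reads per kilobase of gene model, scaled to the depth of the lane. Of 55 such Rab rows, 47 met the limit, among 14051 of 21423 genes of any kind that did. The 8 Rab rows below it had mean levels between 0.02 and 0.54 RPKM, with Rab37 at 0.54 and Rab32 at 0.44 just outside, and Rab3d at 2.32 and Rab27a at 3.64 just inside. Rab19 was listed at 0 in all saline and withdrawal lanes, Rab25 in all cocaine lanes and Rab44 in all withdrawal lanes.

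All mice were adult C57BL/6 males, 2 to 5 months old. The saline group received 10 ml/kg saline and the cocaine group 10 or 20 mg/kg cocaine by intraperitoneal injection each day for 7 days, and both were killed 24 h after the last injection. Which of these doses the sequenced mice received is not stated in the labels. The withdrawal group also received daily cocaine for 7 days and was killed 8 days after its last injection, so it differs from the saline group in drug and in time since injection together. Each group is 1 library of polyadenylated RNA, pooled from the accumbens punches of 8 mice and sequenced in 3 lanes. The spread between lanes therefore measures sequencing only, no p-value for a treatment can be given, and every SD or SE is over 3 lanes of 1 library. Fewer cells of a type and less RNA per cell cannot be told apart in such pooled tissue.

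A Rab protein switches between a GTP-bound form, which recruits effectors such as tethers and motors to a membrane, and a GDP-bound form. Guanine nucleotide exchange factors load GTP, GTPase-activating proteins speed its hydrolysis, and dissociation inhibitors carry the GDP form through the cytosol. In neurons Rab3 proteins sit on synaptic vesicles and regulate release, Rab5, Rab4 and Rab11 proteins move receptors into and out of endosomes, Rab7 leads to the lysosome, and Rab1, Rab2 and Rab6 proteins serve the endoplasmic reticulum and the Golgi.

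Membrane attachment depends on geranylgeranyl groups added to cysteines at the end of the protein. In the principal mouse transcripts of GENCODE M21 (GRCm38, another build than that of the expression values), all 47 Rab genes had a cysteine codon within their last 4 coding codons. The final codons were cysteine, any, cysteine in 17 genes, 2 cysteines in 12, and a cysteine followed by 3 further codons in 12. The last of these classes includes Rab11a, Rab11b, Rab21 and Rab30, where the codon before that cysteine was a cysteine codon too. In 5 genes a cysteine pair was followed by 2 codons and in Rab34 by 1. The last 30 coding bases, without the stop codon, are shown for the genes that the results turn on and their nearest paralogues, with these cysteine codons in capitals, since the number and spacing of these cysteines differ between subfamilies.
Rab3a: caggcgccacctcatcaggatTGTgccTGC
Rab3b: ccacctctgctgcagcagaacTGCtctTGT
Rab3c: cctcctccaccacagcccaacTGTggcTGC
Rab3d: ccacccccacagccgagcagcTGCagcTGT
Rab6: caaccagtcaatgaaggcggcTGTtccTGC
Rab6b: cccccggccagcgagggcggcTGCtccTGT
Rab33a: gaggctaacggtaaagcctccTGTcctTGT
Rab33b: gagaccaagcctgcggtgactTGCtggTGC
Rab9: cgaaagcccaagccaaactcatctTGCTGT
Rab9b: agtggctccaaagcaagttcttctTGTTGT
Rab13: gacaagaagaagaacaagTGCttgttaggc
Rab30: atcagctatttgactTGTTGTaatttcaac
The Rab3a stretch lies at chr8:70758056-70758085 and the Rab3b stretch at chr4:108940781-108940810, both in the last coding exon on the plus strand. The 4 Rab3 genes, both Rab6 genes and both Rab33 genes end in cysteine, any, cysteine, and both Rab9 genes end in a cysteine pair. Over the aligned coding sequence, paralogues of 1 subfamily were between 68.7% (Rab33a and Rab33b) and 79.3% (Rab3b and Rab3d) identical. An identical run longer than the 37-base reads occurred in the pair of Rab1 and Rab1b, at 38 bases, and in no other pair compared.

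Reads could still be shared with pseudogenes or overlapping transcripts. In 18 Rab genes no 37-base window of the principal transcript occurred in a transcript of another gene, among them Rab3a, Rab3b, Rab13 and Rab33a. In Rab30 0.48% of windows did, 45 in number, and these occurred in transcripts of 2076 other genes. The scanned transcript can differ from the gene model behind the RPKM values. It held 1053 bp beside 3524 bp for Rab3b, 1363 beside 2236 for Rab3a and 1107 beside 1651 for Rab13. For Rab30 it held 9456 bp beside 2116 bp, so its 0.48% is over much more sequence than the gene model. For Rab33a both were 1158 bp. Sequence outside the scanned transcript was not examined. The scan took exact windows of the length of a single read end, so read pairs and near-identical copies were not considered. In 14 genes at least 5% of windows were shared, so their levels are uncertain. These include Rab43 (90.4%), Rab4b (81.7%) and Rab2b (74.9%, with 18 other genes, Gm43766 and Tox4 among them). They also include Rab24 (49.9%, with Prelid1), Rab7 (31.0%, with the pseudogene Rab7-ps1), Rab6 (23.7%) and Rab9 (12.2%, with the pseudogene Rab9b-ps1).

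The lanes held between 5546362 and 12026754 mapped reads, and the libraries 26006605 (saline), 24219333 (cocaine) and 19452882 (withdrawal). Lanes of 1 library correlated across genes at 0.976 to 0.985 and lanes of different libraries at 0.962 to 0.980. The tissue showed its medium spiny neuron markers, 11 of 12 listed symbols being in the table, with summed levels of 2126 to 2224 RPKM in saline, 1590 to 1675 in cocaine and 1908 to 1933 in withdrawal lanes. The cortical projection neuron markers (8 of 8) summed to 42.0 to 44.7, 32.0 to 36.2 and 29.7 to 30.9 RPKM, in the same order. The other lists with their sums in that order were oligodendrocyte (8 of 8) 1865 to 1882, 1748 to 1790 and 1695 to 1702, and astrocyte (7 of 7) 1098 to 1117, 1074 to 1084 and 996 to 1033. Microglia markers (8 of 8) summed to 147 to 165, 133 to 145 and 128 to 138, and choroid plexus markers (5 of 5) to 6.78 to 10.5, 12.5 to 16.7 and 7.04 to 9.88. The remaining lists were oligodendrocyte precursor (5 of 5) 34.1 to 37.8, 52.1 to 57.2 and 54.8 to 56.7; endothelial (7 of 7) 51.5 to 53.1, 68.6 to 73.9 and 75.7 to 81.9; and erythrocyte (5 of 5) 446 to 474, 573 to 650 and 336 to 363. No marker of these lists was at 0 in any library. A sum weighs its most abundant genes most. The median difference from saline in mean log2(RPKM + 0.5) of the 11 spiny neuron markers was -0.19 in cocaine and 0.08 in withdrawal. In withdrawal 6 of them were higher and 5 lower. For the 6 tested cortical markers it was 0.005 in cocaine, with 3 higher and 3 lower, and -0.21 in withdrawal. Slc17a7 was the lowest of these, at -1.64 and -2.08. The part of these shifts in the Rab differences was not tested.

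Rab3a, which acts in synaptic vesicle release, was the most abundant Rab RNA in every lane. It stood at 565, 601 and 598 RPKM in the saline lanes, 501, 520 and 507 in the cocaine lanes and 510, 469 and 480 in the withdrawal lanes, and made up 23.7% to 26.1% of the summed Rab RPKM. Rab7, the late endosomal Rab, followed at 260 ± 8.94 RPKM (SD) in saline, 237 ± 7.75 in cocaine and 233 ± 5.75 in withdrawal. Rab6b, the neuron-enriched Golgi Rab, was the only other member at or above 100 RPKM in every library, with 109 ± 1.28, 119 ± 3.92 and 118 ± 3.36 RPKM. Rab1 and Rab2a of the endoplasmic reticulum and Golgi, Rab5c of early endosomes, Rab14 of recycling endosomes and Rab6, the ubiquitous Golgi paralogue of Rab6b, completed the 8 highest by the mean over all 9 lanes, with library means between 62.0 and 93.1 RPKM. Within the withdrawal library alone Rab1b, the paralogue of Rab1, averaged 65.4 RPKM, above Rab6 (63.7) and Rab2a (62.0). The 8 genes held 58.9% to 60.6% of the Rab RPKM in each lane.

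**Figure D1:**
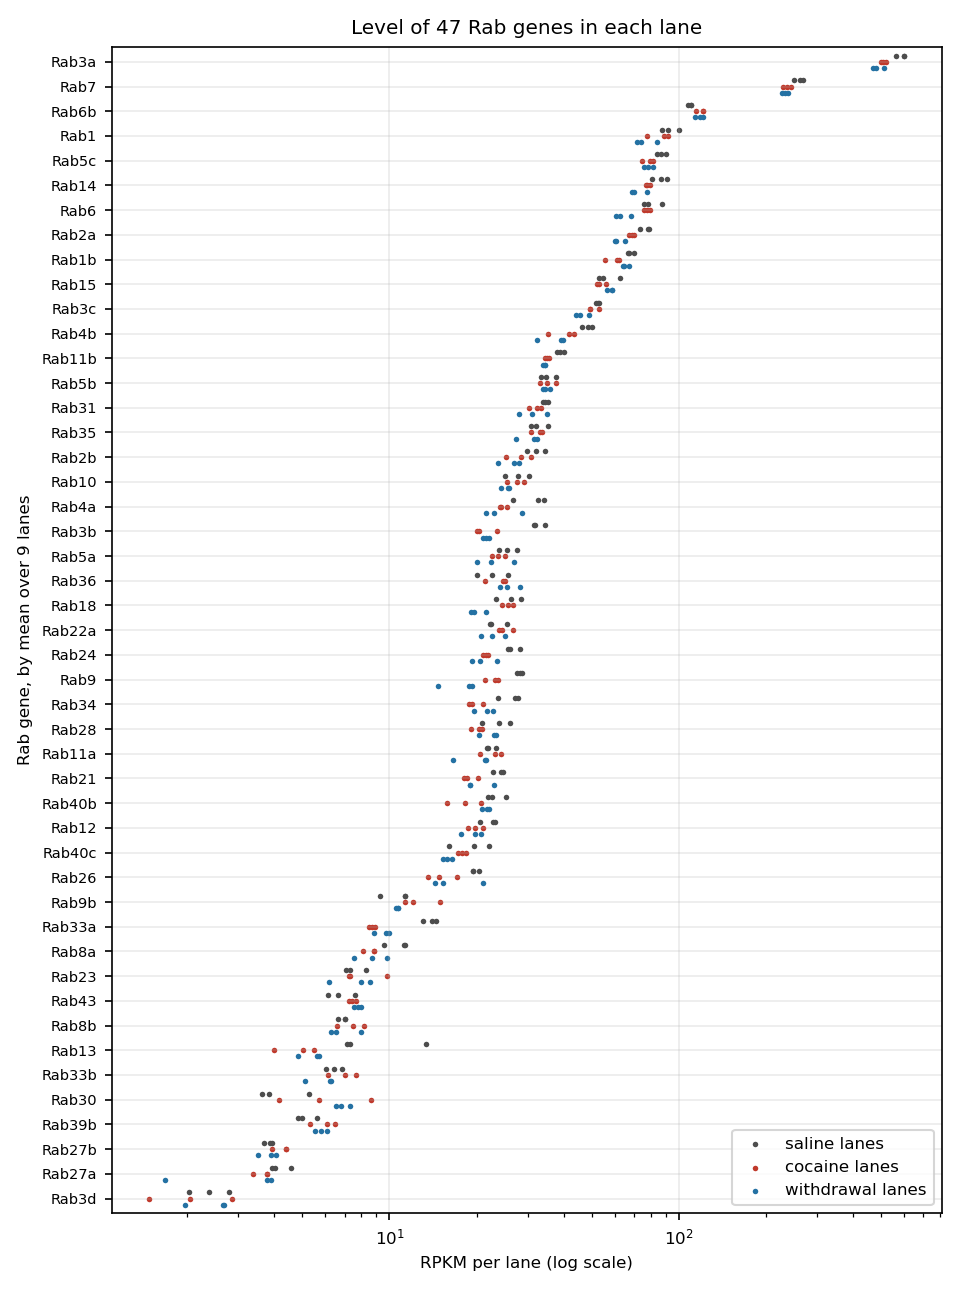
RPKM (log scale) of the 47 Rab genes in each of 9 lanes, sorted by mean level, with 1 point per lane coloured by library. Rab3a lies above all others, between 469 and 601 RPKM, and Rab3d is lowest, with lanes between 1.48 and 2.86 RPKM.

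Below the leading genes the order was close. In saline 34 members lay between 10 and 100 RPKM and 10 below 10, and in cocaine and withdrawal 32 and 12. Of the 46 pairs of neighbours in that order, the lanes overlapped in 31 pairs in saline, 35 in cocaine and 35 in withdrawal, so most neighbouring levels did not differ beyond the lane spread. Among the release genes, Rab3c averaged 52.5, 50.5 and 46.2 RPKM in saline, cocaine and withdrawal, Rab26, a Rab of secretory granules, 19.8, 15.2 and 16.9, Rab27b, of granule and exosome secretion, 3.82, 4.24 and 3.83, and Rab3d 2.40, 2.13 and 2.44. The endosomal genes were lower than Rab3a too, with Rab5a at 25.7, 23.8 and 23.1 RPKM and Rab11a, of recycling endosomes, at 22.3, 22.7 and 19.9. Rab11b, its paralogue, averaged 39.0, 35.0 and 34.4 RPKM.

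The summed Rab level was 2285 to 2304 RPKM in the saline lanes, 2056 to 2100 in the cocaine lanes and 1975 to 2022 in the withdrawal lanes. The saline sums overlapped with neither of the others, nor did the cocaine sums with the withdrawal sums. The sums weigh Rab3a and Rab7 most, were not corrected for gene length and were not set beside a sum over all genes.

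Cocaine against saline, both at 24 h, asks how repeated cocaine changed the accumbens. Differences are given as the difference in mean log2(RPKM + 0.5), where the added constant shrinks the differences of weakly expressed genes, with the standard error from lanes. A gene was called where this difference was at least 1.5 times and the lanes of the libraries did not overlap. Rab3b, Rab33a and Rab13 fell in the cocaine library and none of the 47 rose. Over all 14051 genes, 2.41% were called lower and 2.93% higher (5.33% in all), beside 6.38% of the Rab genes called lower and 0% higher.

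Rab3b, a vesicle Rab that can act in release alongside Rab3a, had 31.5, 31.8 and 34.5 RPKM in the saline lanes and 20.1, 20.3 and 23.5 in the cocaine lanes. All 3 cocaine lanes lay below all saline lanes, and the level fell by 0.60 ± 0.081 on the log2 scale. The difference was -0.56, -0.56 and -0.57 without saline lane 3, cocaine lane 1 or cocaine lane 2, and the call was then lost. In the withdrawal library the lanes held 21.1, 22.2 and 21.6 RPKM, also below every saline lane, with a difference from saline of -0.58 ± 0.046 that was just short of the size limit. It passed the limit, at -0.60, without saline lane 1, saline lane 2 or withdrawal lane 2.

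Rab33a, a Golgi Rab carried on the X chromosome, had 14.5, 14 and 13.0 RPKM in saline lanes and 8.71, 8.93 and 8.49 in cocaine lanes. The lanes were far apart relative to their spread, and the level fell by 0.64 ± 0.049. Withdrawal lanes read 8.87, 9.76 and 9.98 RPKM, still below saline, with a difference of -0.52 ± 0.067 that was not called. Rab13, which serves epithelial junctions and surface delivery, was the least reproducible of the called genes. Its saline lanes held 7.11, 13.4 and 7.32 RPKM, its cocaine lanes 4, 5.50 and 5.03 and its withdrawal lanes 5.72, 5.62 and 4.82. All saline lanes were above the others, but saline lane 2 stood well above the other saline lanes, and the fall of 0.82 ± 0.31 had the largest error among the called genes. Without that lane the difference was -0.54 and the call was lost. Rab13 rested on 739 reads over all lanes, Rab33a on 881 and Rab3b on 6289.

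**Figure D2:**
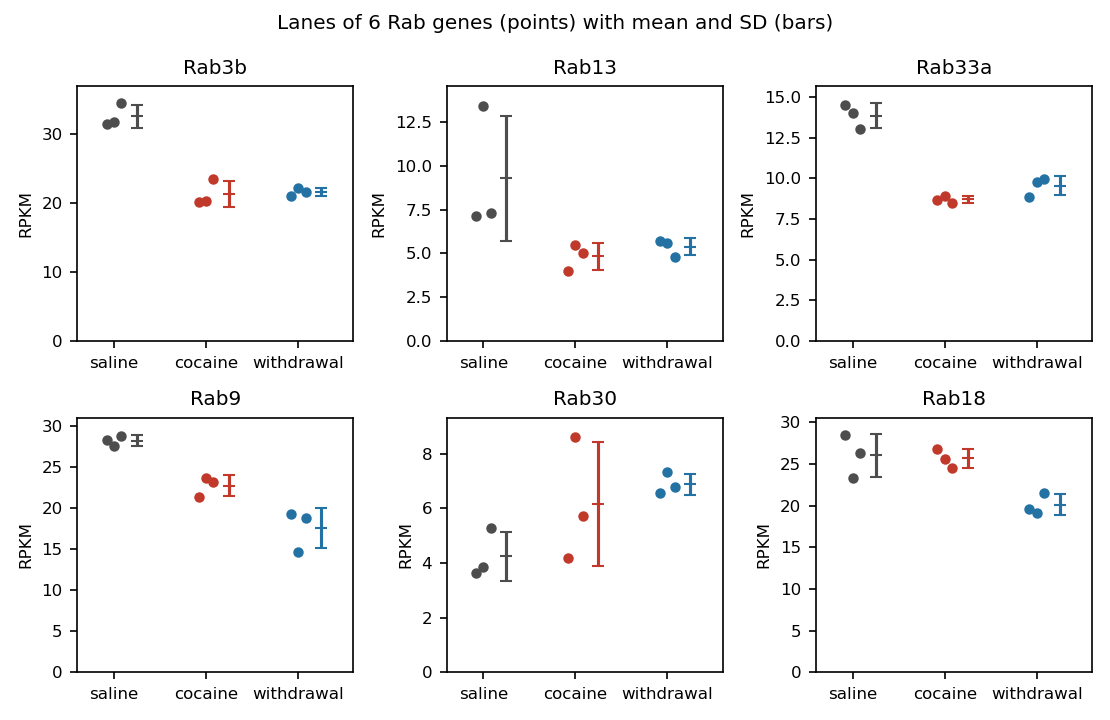
RPKM in each lane (points) of Rab3b, Rab13, Rab33a, Rab9, Rab30 and Rab18 in the saline, cocaine and withdrawal libraries, with the mean and SD of the 3 lanes as bars beside them. The saline lanes of Rab3b, Rab13, Rab33a and Rab9 lie above all lanes of the other libraries, saline lane 2 of Rab13 stands at 13.4 RPKM, and withdrawal lanes of Rab9 reach down to 14.7 RPKM.

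Most other Rab genes had lower values in the cocaine library by a smaller amount. In 35 of 47 the mean was lower, beside 56.5% of all genes, and the median difference of the Rab genes was -0.14, beside -0.05 over all genes. Their quartiles were -0.25 and 0.01. Lanes did not overlap in 22 genes that were lower and in 2 that were higher, Rab6b and Rab27b, where over all genes 23.9% were lower and 18.3% higher (42.1% in all). A lower size limit of 0.32 on the log2 scale, also without overlap of lanes, was passed by 8 genes, all lower, or 17.0%, beside 12.1% of all genes lower and 9.78% higher (21.9% in all). Besides the 3 called genes these were Rab34 (-0.40), Rab26 (-0.38), Rab40b (-0.34), Rab4a (-0.33) and Rab21 (-0.33). Rab30 had the largest positive difference, 0.45 ± 0.32, with cocaine lanes at 4.17, 8.61 and 5.71 RPKM that overlapped with the saline lanes. It passed the 1.5-times limit as a higher value without saline lane 3 (0.60) or without cocaine lane 1 (0.68), and was 0.20 without cocaine lane 2.

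The release genes Rab3a, Rab3b, Rab3c, Rab3d, Rab26, Rab27a and Rab27b had a median difference of -0.17, with 6 of 7 negative and Rab27b positive at 0.13. Rab3a itself differed by -0.21 ± 0.033, without overlap of lanes. For early endosome genes (Rab5a, Rab5b, Rab5c, Rab21, Rab22a, Rab31) the median was -0.11, with 5 of 6 negative, and for recycling genes -0.14, with 6 of 7 negative. The late endosome and autophagy genes had a median of -0.14, where Rab9 stood at -0.31 ± 0.049 and Rab9b at 0.25. The Golgi and endoplasmic reticulum genes had a median of -0.03, with 7 of 12 negative, and the surface and cilium genes -0.19, with 6 of 8 negative.

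**Figure D3:**
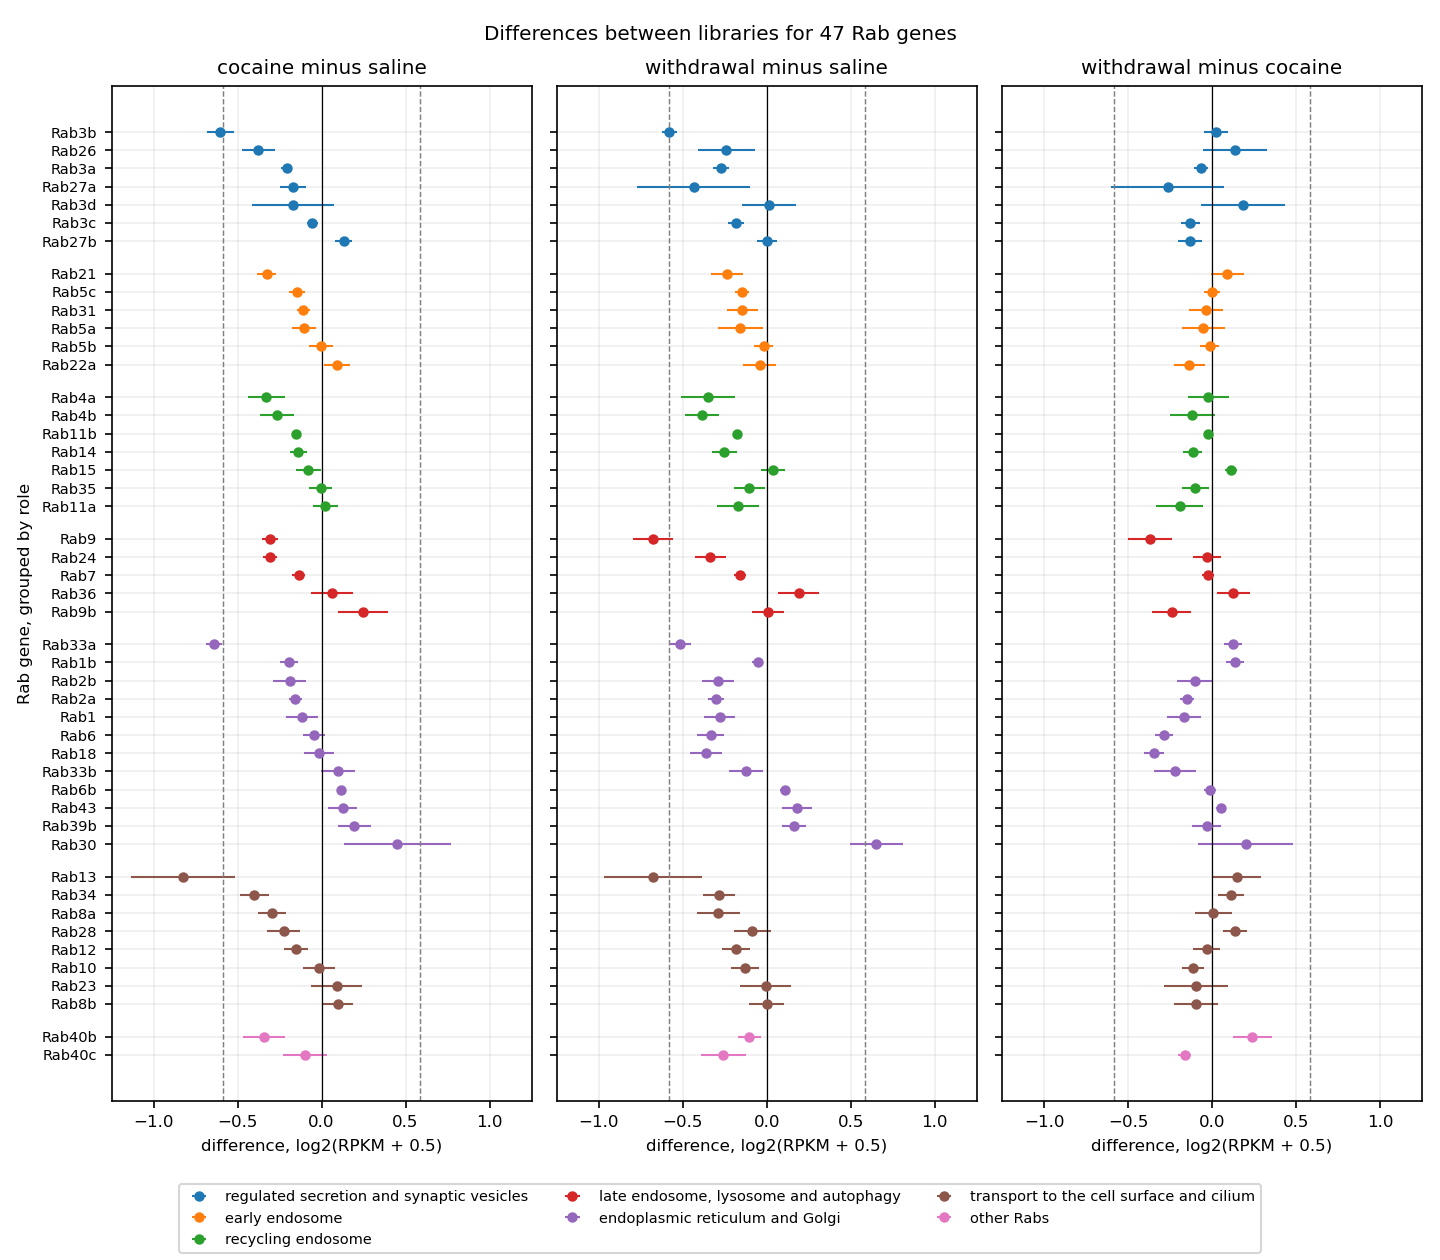
Difference in mean log2(RPKM + 0.5) between libraries for the 47 Rab genes, grouped and coloured by role, in 3 panels (cocaine minus saline, withdrawal minus saline, withdrawal minus cocaine). Bars are the standard error from 3 lanes per library and dashed lines mark 1.5 times; in the first 2 panels most points lie left of 0, with Rab13 at -0.82 and -0.68 and Rab30 at 0.45 and 0.65.

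Withdrawal against saline uses the same saline library, so its values are not an independent repeat of the above. Rab9 and Rab13 fell and Rab30 rose by the size limit. Over all genes 3.37% were called lower and 3.96% higher (7.33% in all), beside 4.26% and 2.13% of the Rab genes. Rab9, which returns proteins from late endosomes to the Golgi, had 28.3, 27.6 and 28.8 RPKM in saline lanes, 21.3, 23.7 and 23.2 in cocaine lanes and 19.3, 14.7 and 18.8 in withdrawal lanes. The libraries did not overlap in any of the 3 comparisons. The level fell by 0.68 ± 0.12 in withdrawal against saline, and without withdrawal lane 2 by 0.56, which loses the call. Rab9 is among the genes whose windows are shared with a pseudogene.

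Rab30, a Golgi Rab, read 3.62, 3.84 and 5.27 RPKM in saline lanes and 6.56, 7.31 and 6.78 in withdrawal lanes. Every withdrawal lane was above every saline lane, and the difference was 0.65 ± 0.16, or 1.57 times on the scale used. Without saline lane 1 it was 0.56 and no longer called. Rab13 fell by 0.68 ± 0.29 and by 0.39 without saline lane 2, again below the limit. Rab27a stood at 3.94, 4.56 and 4.01 RPKM in saline and 1.68, 3.77 and 3.90 in withdrawal, a difference of -0.44 ± 0.34 with 1 low lane of 30.5 reads. It was -0.10 without that lane, and it passed the 1.5-times limit without withdrawal lane 2 (-0.59) or lane 3 (-0.61).

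The median of the Rab genes was -0.17 in withdrawal against saline, beside -0.06 over all genes, with quartiles of -0.29 and -0.03, and 39 of 47 were lower beside 56.6% of all genes. Without overlap of lanes 20 were lower and 2, Rab30 and Rab6b, higher, where all genes gave 25.6% and 18.6% (44.2% in all). Past the lower limit, 9 were lower and 1 higher, beside 15.2% and 11.1% of all genes (26.3% in all). The lower ones included Rab6 at -0.33 ± 0.08, Rab18, of lipid droplets and the endoplasmic reticulum, at -0.36 ± 0.096, and Rab4b at -0.38. By role the medians were -0.24 for release, -0.15 for early endosome, -0.18 for recycling, -0.16 for late endosome, -0.20 for Golgi and endoplasmic reticulum and -0.16 for surface and cilium genes.

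Withdrawal against cocaine, which asks what differs between early and later times after the drug, gave no call among the Rab genes, where 0.548% of all genes were called lower and 0.47% higher (1.02% in all). Their median difference was -0.03, beside -0.01 over all genes. Past the lower limit, Rab9 (-0.37 ± 0.13) and Rab18 (-0.35 ± 0.062) were lower and none was higher, beside 2.42% and 2.23% of all genes (4.65% in all). Rab18 held 26.8, 25.6 and 24.6 RPKM in cocaine and 19.6, 19.1 and 21.5 in withdrawal lanes. Without withdrawal lane 2 neither passed. Rab6 was lower (-0.29 ± 0.055) and Rab40b, an E3 ligase substrate receptor, higher (0.24 ± 0.11), each without overlap of lanes, by which criterion 7 Rab genes were lower and 3 higher, beside 9.42% and 8.66% of all genes (18.1% in all).

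Within subfamilies the shares of paralogues differed between libraries. Rab3b made up 4.83% ± 0.20 of the summed Rab3 RPKM in saline, 3.66% ± 0.33 in cocaine and 3.89% ± 0.23 in withdrawal, and all saline lanes were above the others, while the Rab3a share overlapped throughout at 87.0%, 87.3% and 87.4%. The Rab6b share of the Rab6 sum was 57.7% ± 2.1 in saline, 60.4% ± 0.96 in cocaine and 64.9% ± 2.0 in withdrawal, with no overlap of lanes between any of the libraries. Rab9b, the minor Rab9 paralogue, held 27.3% ± 1.9, 35.8% ± 2.5 and 37.9% ± 3.7, with all saline lanes below the others. Rab33b, which is known for a part in autophagy, held 31.7% ± 2.4 of the Rab33 sum in saline, 44.2% ± 3.2 in cocaine and 38.1% ± 3.8 in withdrawal, and the saline lanes lay below all cocaine lanes but overlapped with the withdrawal lanes. The Rab5, Rab11, Rab2 and Rab4 shares overlapped between all libraries. From saline to cocaine the Rab8b share went from 39.3% ± 1.4 to 46.2% ± 1.7 and the Rab27b share from 47.9% ± 1.6 to 53.8% ± 0.14. From cocaine to withdrawal the Rab1 share went from 59.1% ± 0.94 to 53.8% ± 2.7 and the Rab40b share from 50.5% ± 3.2 to 57.6% ± 0.70. Lanes did not overlap in these comparisons, and they overlapped in the others of these subfamilies. A share is a ratio within 1 library, so it shows unequal change of the paralogues and not which of them moved. Shares were not corrected for gene model length. That was 4095 bp for Rab6 and 4857 for Rab6b, 1749 for Rab9 and 3980 for Rab9b, and 1158 for Rab33a and 3472 for Rab33b. In the Rab6, Rab9 and Rab33 pairs the mean share of the longer paralogue was larger in cocaine and withdrawal than in saline. For Rab33b the withdrawal lanes overlapped with saline. Rab3b (3524 bp) is longer than Rab3a (2236 bp), and its share was smaller there than in saline. Rab3c, the longest Rab3 gene model at 8703 bp, held 7.78% ± 0.34 in saline, 8.67% ± 0.45 in cocaine and 8.30% ± 0.62 in withdrawal. Its cocaine lanes lay above all saline lanes, and its withdrawal lanes overlapped with them. Rab6 and Rab9 are also among the genes with shared windows.

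**Figure D4:**
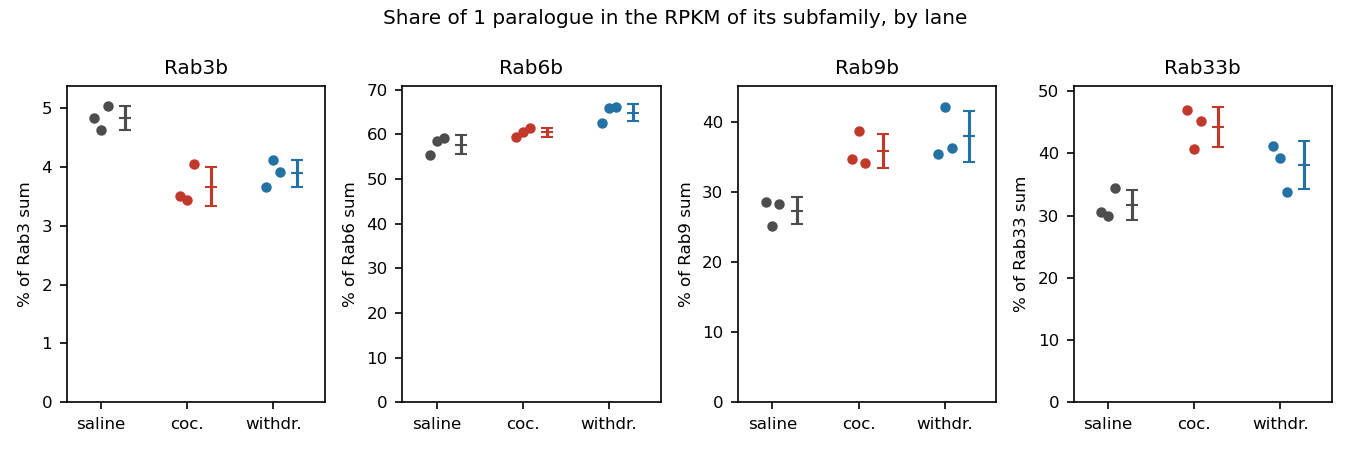
Share of Rab3b, Rab6b, Rab9b and Rab33b in the summed RPKM of their subfamily, by lane (points) with mean and SD (bars), for the 3 libraries. Rab3b lies near 5% in saline and 3.4% to 4.1% elsewhere, and the means of Rab6b are 57.7%, 60.4% and 64.9%.

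Differences from saline went with gene length. The gene models of the Rab genes ran from 1158 bp (Rab33a) to 10679 bp (Rab27b), with a median of 2992 bp beside 3531 bp for all tested genes. Across the 47 Rab genes, which share their libraries and are not replicates, Spearman's rho between length and difference was 0.65 for cocaine against saline and 0.52 for withdrawal against saline, beside 0.46 and 0.42 over all tested genes. For withdrawal against cocaine it was -0.22, beside 0.01. The 11 Rab genes under 2000 bp, Rab13, Rab33a and Rab9 among them, had negative differences from saline in both comparisons, with medians of -0.31 and -0.34, beside -0.25 and -0.27 for the 3227 genes of that length. The 16 of at least 4000 bp had medians of -0.025 and -0.012, beside 0.089 and 0.085 for all 6016 such genes.

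**Figure D5:**
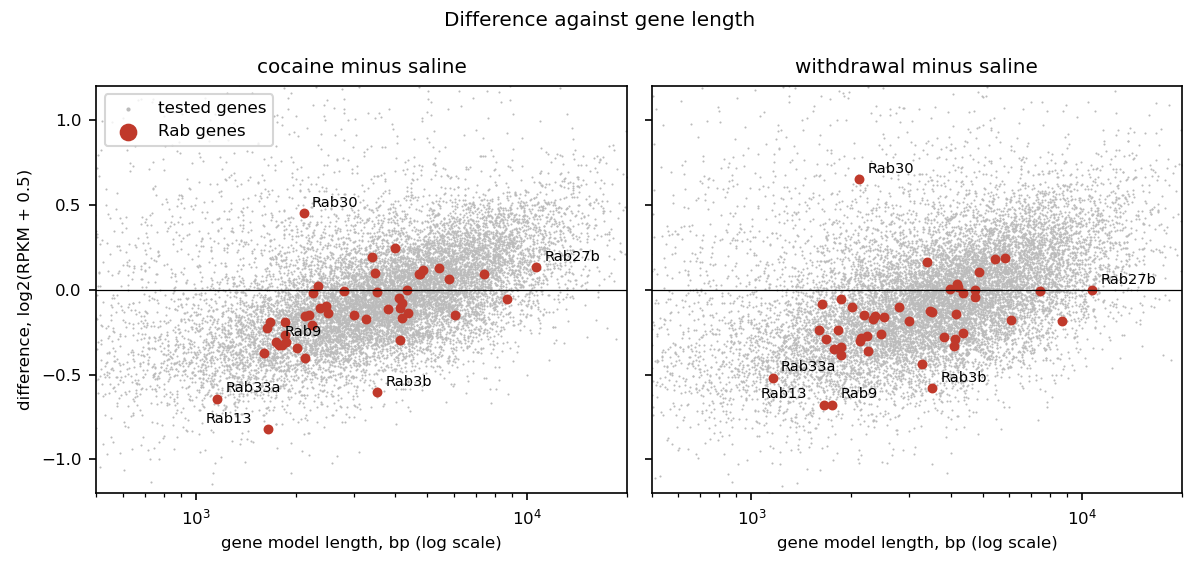
Difference in mean log2(RPKM + 0.5) against gene model length (log scale) for all tested genes (grey) and the 47 Rab genes (red), for cocaine minus saline and withdrawal minus saline. Short Rab genes such as Rab33a and Rab13 lie low and Rab27b, the longest, near 0; 516 of 14051 genes fall outside the plotted range.

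When each difference was taken relative to genes of similar length, the Rab medians were -0.03 and -0.05. Rab33a then differed from saline by -0.32 in cocaine and was no longer called, Rab3b by -0.52, also below the limit, and Rab13 by -0.60, still called. In withdrawal Rab9 and Rab13 stood at -0.42 each and Rab30 at 0.85. Whether RNA quality or library construction has a part in the length relation was not tested.

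The promoter windows are shown for the 4 Rab genes that fell, as 250 bases upstream of the start (RefSeq, GRCm38.p6), with TGACG and its reverse complement CGTCA, the core of the CREB motif, in capitals, because CREB is a known mediator of cocaine responses in this region. A letter match is a description and not a binding site.
Rab3b: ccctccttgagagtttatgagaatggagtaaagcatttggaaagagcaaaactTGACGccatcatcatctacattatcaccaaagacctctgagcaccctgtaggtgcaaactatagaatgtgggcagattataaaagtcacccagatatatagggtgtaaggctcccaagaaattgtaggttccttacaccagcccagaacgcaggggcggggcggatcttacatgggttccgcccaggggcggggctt
Rab13: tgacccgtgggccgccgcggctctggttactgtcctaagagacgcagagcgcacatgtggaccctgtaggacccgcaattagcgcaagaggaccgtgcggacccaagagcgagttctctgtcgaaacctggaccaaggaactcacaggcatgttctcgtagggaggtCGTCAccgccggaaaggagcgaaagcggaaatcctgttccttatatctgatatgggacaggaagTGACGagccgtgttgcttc
Rab33a: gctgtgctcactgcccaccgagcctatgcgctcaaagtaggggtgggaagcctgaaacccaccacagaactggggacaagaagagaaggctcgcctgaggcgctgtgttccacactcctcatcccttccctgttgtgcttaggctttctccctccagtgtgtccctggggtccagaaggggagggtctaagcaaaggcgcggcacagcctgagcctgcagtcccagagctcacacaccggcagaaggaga
Rab9: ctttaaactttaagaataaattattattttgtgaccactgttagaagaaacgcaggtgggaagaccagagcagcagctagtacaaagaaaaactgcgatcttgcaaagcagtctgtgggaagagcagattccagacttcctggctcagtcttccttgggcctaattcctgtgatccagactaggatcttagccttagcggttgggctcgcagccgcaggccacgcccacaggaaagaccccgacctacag
The Rab3b window lies at chr4:108878820-108879069 and the Rab13 window at chr3:90213465-90213714, both on the plus strand. The Rab33a window is chrX:48519035-48519284 on the plus strand, and the Rab9 window chrX:166479868-166480117 on the minus strand. The core occurred in Rab3b and Rab13 and not in the windows of Rab33a or Rab9. A window was found for 40 of the 47 Rab genes, and TGACG on either strand was present in 19 of them (47.5%), beside 27.1% of 9529 tested genes and 17.9% of all 27025 genes with a window. The full site TGACGTCA occurred in 1 (Rab5a), or 2.5%, beside 2.83% of tested genes, and the AP-1 motif TGANTCA in 1 (Rab34), beside 3.82%. The Rab windows had a median GC content of 61.8%, beside 60.4% in tested genes and 52% in all genes.

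Among genes that act on Rab proteins, from lists chosen by function, few were called. The counts are set beside the 5.33% of all genes called in cocaine, 7.33% in withdrawal against saline and 1.02% in withdrawal against cocaine. These differences were not corrected for gene length, with which differences from saline went across all tested genes. In the prenylation and dissociation inhibitor group none of 9 tested genes was called, with medians of -0.16 in cocaine and -0.21 in withdrawal against saline. The largest differences lay on both sides of 0. Chml, a Rab escort protein, was at 0.884 ± 0.40 RPKM in saline, 1.30 ± 0.14 in cocaine and 1.40 ± 0.20 in withdrawal, with differences from saline of 0.42 and 0.49. Rabac1, a prenylated Rab acceptor, differed by -0.34 in cocaine, and Gdi2, a dissociation inhibitor, by -0.43 in withdrawal, from 78.9 ± 3.2 to 58.4 ± 0.92 RPKM. Between withdrawal and cocaine the largest differences were those of Gdi2 (-0.27) and Chm (-0.26), the other Rab escort protein.

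Of 33 tested exchange factors, 1 was called in cocaine and 3 in withdrawal against saline, near the shares over all genes. Their median differences from saline were 0.02 in cocaine and 0.12 in withdrawal. Trappc1, part of the TRAPP complex that activates Rab1, fell in cocaine from 39.6 ± 3.1 to 25.6 ± 3.2 RPKM, or -0.63. In withdrawal Trappc1 (-0.74) and Trappc2 (-0.67) fell and Dennd3 (0.62) rose. Sbf1 had 40.7 ± 1.0 RPKM in saline and 56.5 ± 1.2 in cocaine, a difference of 0.47 that was not called. Between withdrawal and cocaine the largest differences were those of Trappc2 (-0.53) and Dennd4b (0.33).

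Of 31 tested GTPase-activating proteins, 0 were called in cocaine and 1 in withdrawal against saline, both below the shares over all genes. The medians from saline were 0.10 in cocaine and 0.18 in withdrawal. In each, 22 of 31 were higher, where 56.5% and 56.6% of all genes were lower. Tbc1d4, which acts on Rab10 in glucose transporter traffic, rose in withdrawal from 3.00 ± 0.11 to 5.19 ± 0.82 RPKM, or 0.69. Without a call, Tbc1d16 differed from saline by 0.38 in cocaine and 0.44 in withdrawal, and Tbc1d15 by -0.38 in cocaine. Between withdrawal and cocaine the largest differences were those of Tbc1d4 (0.31) and Tbc1d15 (0.23).

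Of 12 effectors in secretion, 1 was called in each comparison with saline, and the medians were 0.23 in cocaine and 0.06 in withdrawal. Sytl5, a Rab27 effector, rose in cocaine from 1.23 ± 0.40 to 3.38 ± 0.27 RPKM, a difference of 1.19, and in withdrawal by 1.04. Rims2, which binds Rab3 at the active zone, had 7.57 ± 0.79 and 11.3 ± 0.56 RPKM in saline and cocaine, a difference of 0.56 that was not called, and differed by 0.54 in withdrawal. Between withdrawal and cocaine Doc2a (-0.27) and Rph3a (-0.20), a Rab3 effector on synaptic vesicles, differed most.

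None of 17 effectors in endocytosis and recycling was called, and their medians from saline were 0.11 in cocaine and 0.05 in withdrawal. Myo5a, the motor myosin Va, differed by 0.43 in cocaine, Rab11fip3, a Rab11 effector, by 0.56 in withdrawal, and Vps45 by -0.42 and -0.51. Between withdrawal and cocaine Rab11fip3 (0.17) and Ocrl (-0.13) differed most. Of 17 other effectors and kinases, 1 was called in cocaine and 0 in withdrawal against saline, with medians of 0.10 and 0.16. Bicd1, a dynein adaptor of Rab6, rose from 1.97 ± 0.30 to 3.22 ± 0.27 RPKM in cocaine (0.60) and differed by 0.50 in withdrawal. Lrrk2, a kinase of Rab proteins, differed by 0.52 in cocaine and Fyco1, a Rab7 effector, by 0.54 in withdrawal, neither called. Between withdrawal and cocaine Rilp (0.52 ± 0.46), a Rab7 effector, and Mical3 (0.27) differed most. No gene of these lists was called in withdrawal against cocaine. Of the genes called against saline, Trappc1 (1104 bp) and Trappc2 (2956 bp) were lower. The higher ones were Sytl5 (2301 bp), Dennd3 (5621 bp), Tbc1d4 (7886 bp) and Bicd1 (13755 bp). The median gene model of all tested genes was 3531 bp. The part of length in these calls was not tested.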

How the data were processed

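Polyadenylated RNA of 3 libraries (saline, cocaine, withdrawal), each pooled from 8 mice, was sequenced in 3 lanes of 37-cycle paired ends. The authors deposited RPKM values per gene and lane, aligned with Bowtie 0.12.7 to mm9 per the submitters' processing notes; for the read counter and gene annotation these sources give no name. The lane composites equal the depth-weighted mean of the lanes. Lanes hold 5546362 to 12026754 mapped reads. Because lanes are technical, no test was run. Instead, genes averaging 1 RPKM or more were compared on log2(RPKM + 0.5), and a gene was called where the means differed by 1.5 times and lanes did not overlap. Whole reads were not recovered, so count tests were not used. Named genes are those called, the 8 highest, the 6 largest differences per comparison, a fixed set of well-known Rab genes, those nearest the 1 RPKM limit, and, per list of Rab regulators, the 2 largest differences per comparison and any called; other members were named after their values were seen. Members and lists were chosen with earlier results of these data known. Gene model lengths came from the RPKM steps. Coding sequences came from GENCODE M21 and promoters from RefSeq (GRCm38.p6). Alternatives tried were other pseudocounts, filters, scalings, a length correction, size limits and leaving out each lane. Python 3.11.15, numpy 2.4.6 and pandas 2.3.3 were used.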

Additional observations from a re-analysis of the deposited data

How the results depend on the processing

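No paired analysis was possible because each group is 1 library and its 3 lanes share no origin with a lane of another group beyond a number. Lanes measure sequencing error only, and low genes rest on few reads. The directions of the medians and of the single-gene differences recomputed held under each alternative run. With a 75th percentile scaling, 1 gene was called in cocaine against saline instead of 3, and with length correction also 1; at 2 times 0 were. The count past the lower size limit there changed from 8 to 5 with the median difference set to 0, 4 with 75th percentile scaling and 2 with length correction. The median of -0.14 became -0.088, -0.064 and -0.034 in the same order, and -0.11 without saline lane 2 or cocaine lane 2 (range over left-out lanes -0.14 to -0.11). In withdrawal against saline 3 calls became 1 with length correction and 0 at 2 times. Past the lower limit 10 became 6, 5 and 5, and the median of -0.17 became -0.11, -0.097 and -0.052. In withdrawal against cocaine the 2 genes past the lower limit became 1 with length correction and ranged from 0 to 3 over left-out lanes, with 0 without withdrawal lane 2. For Rab3b in cocaine against saline, the difference was -0.56 with the median set to 0 and -0.53 with 75th percentile scaling, both below the limit, and for Rab33a it was -0.57 with the latter. Leaving out 1 lane gave Rab3b values from -0.67 to -0.56. In withdrawal against saline Rab3b passed the limit with a pseudocount of 0.1 (-0.59). The cause of these shifts was not tested.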
